A study of Saccharomyces cerevisiae with 24 samples.

Results

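The first hour of heat was set against the first hour of cold in cultures of Saccharomyces cerevisiae strain S288C, the standard laboratory line of baker's yeast. The heat series was grown in SD medium at 28 °C to an optical density (OD600) of 1 and shifted to 37 °C. The cold series was grown in the same way and shifted to 10 °C, and a control series stayed at 28 °C. Of the 24 arrays of the study, 8 belong to this comparison: heat at 0, 15, 30 and 60 min and cold at the same 4 times, with the 4 control arrays of these times beside them. Each temperature and time has 1 array, and nothing in the labels says that any culture was repeated. Every change is a log2 difference from the 0 min array of the same series, and heat and cold are paired by time. The comparison asks which of 5449 measured genes moved in opposite directions in heat and cold, and which moved the same way in both.

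Yeast cells that meet many kinds of stress switch on a shared set of genes for chaperones, antioxidants and the storage sugars trehalose and glycogen, largely through the transcription factors Msn2 and Msn4. At the same time they lower the genes that build ribosomes. Both sets answer to the Ras and protein kinase A (PKA) pathway and to TOR signalling, which favour growth genes and hold back stress genes. Ribosome assembly genes and the genes of the ribosomal proteins themselves are controlled by different transcription factors. Heat shock factor Hsf1 adds the genes of many chaperones, and prolonged cold is known to raise cell wall mannoprotein genes such as TIP1 and TIR1.

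Nearly all genes that moved in both heat and cold moved in opposite directions. A gene was counted as moved when its mean change over 15, 30 and 60 min was at least 2-fold with 1 sign at all 3 times. By this rule 106 genes were higher in heat and lower in cold, which is 1.95% of the genes, and 161 were lower in heat and higher in cold, which is 2.95%. Only SUL1, a sulfate permease gene, was higher in both (0.0184%), and no gene was lower in both (0.0%). In heat 700 genes had moved (12.8%), 317 higher (5.82%) and 383 lower (7.03%). In cold 407 had moved (7.47%), 245 higher (4.5%) and 162 lower (2.97%). The same rule took 3 genes (0.0551%) in the control series. The 268 genes that moved in both series are 38.29% of those moved in heat and 65.85% of those moved in cold, and 267 of them (4.9% of all genes) lie in the opposite classes. Without any size threshold, 1276 genes (23.4%) were above their 0 min level at all 3 times in heat and below it in cold, and 1094 (20.1%) the reverse. Only 252 (4.62%) were above it throughout in both series, and 260 (4.77%) below it. These counts come with no test, because each time has 1 array. RMA, the summary method behind the values, gives all arrays a like distribution, so a change of total RNA per cell cannot be told apart from none.

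**Figure D1:**
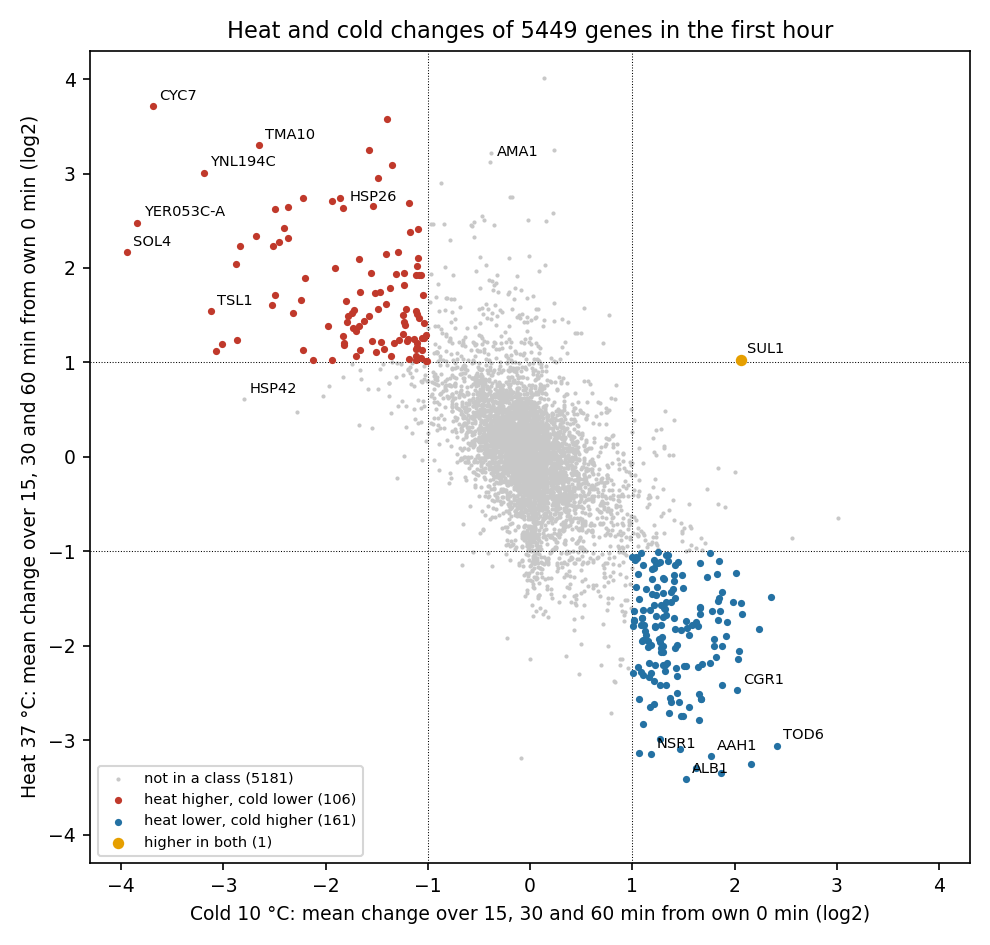
Mean change over 15, 30 and 60 min from the own 0 min array (log2) in heat on the vertical axis and in cold on the horizontal axis, 1 point per gene for 5449 genes. Dotted lines mark 2-fold; the 106 red and 161 blue genes fill opposite corners, and SUL1 is the only gene past 2-fold in the corner where both are higher.

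The difference between heat and cold was tested with limma on the 8 arrays, with time as a block. In this fit the 3 times stand in for replicates, so the p-values measure the spread between times and not between cultures. It called 251 genes (4.61%) at an adjusted p of 0.05, 114 (2.09%) with heat above cold and 137 (2.51%) with heat below cold. Of the 251, 141 lie in the opposite 2-fold classes, 56 in the class higher in heat and 85 in the class lower in heat. A further 52 had moved 2-fold in heat only, 44 in cold only and 14 in neither. The mean changes had opposite signs in 249 of the 251. The calls depend on the last time: without 60 min the fit called 0 genes, with 1196 at an unadjusted p under 0.05, and without 15 min it called 790. All heat RNA was labelled with another amplification kit than the cold and control RNA, per the labels, so a kit effect that differs between times cannot be told apart from heat.

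The heat 0 min array itself stood apart. Its Pearson correlation with the cold 0 min array across genes was 0.708, against 0.99 between the cold and control 0 min arrays, and 2348 genes (43.09%) differed at least 2-fold between the heat and cold 0 min arrays. That starting difference followed gene length (Spearman's rho 0.393 across genes), whereas the changes did not: rho was -0.042 for heat and 0.005 for cold. For the class lower in heat the median level was 11.06 on the heat 0 min array, against 10.29 on the cold one. For the class higher in heat it was 10.41, against 11.12. Taken gene by gene, heat 0 min minus cold 0 min had a median of 0.941 in the class lower in heat. In the class higher in heat that median was -0.099. Every change is taken from these arrays. A fit of the levels at 15, 30 and 60 min alone, without the 0 min arrays, called 3991 of the 5449 genes. Of the 251, 244 were called there as well, 240 of them with the same sign. Since that fit called most genes and used the same later arrays, the overlap adds no support to the calls. Genes of the alpha mating type were at high levels, and all 4 markers lay above background, at 10.62 to 14.47 in heat and 12.99 to 14.34 in cold. Of the 6 markers of the a mating type, 5 had a mean above background in both series. They lay lower, at 6.51 to 10.04 in heat and 7.04 to 9.29 in cold. The remaining a marker, AGA2, had a mean below background in both. Of 5 sporulation markers 3 had a mean above background in heat and 4 in cold.

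Among the genes higher in heat, the small heat shock proteins and disaggregases, which bind or dissolve protein aggregates, had a median change of 1.48 in heat and -1.98 in cold over 4 genes, against 0.17 in the control. Over all genes the medians were 0.02 in heat, -0.02 in cold and -0.03 in the control. Of the 4, 2 passed the test, HSP42 and HSP78, and 3 lie in the class higher in heat. Among all genes 2.09% passed with heat above cold, and 1.95% lie in that class. HSP42, a small heat shock protein that gathers misfolded proteins, had log2 levels of 13.95, 14.54, 14.59 and 14.54 in heat at 0, 15, 30 and 60 min, against 12.69, 10.30, 9.47 and 9.91 in cold. Its heat arrays all lay near the top of the scale (15.1 is the highest value in the table), and most of the gap of 3.41 ± 0.42 (SE, limma adjusted p = 0.03229) came from the cold arrays. HSP26, the other small heat shock protein, had 11.60, 13.58, 14.48 and 14.65 in heat, against 13.13, 12.47, 11.52 and 9.92 in cold. It moved further from its start with each later array in both series, and since the fit counts such a course as spread, its difference of 4.47 ± 1.29 did not pass (adjusted p = 0.1122). HSP104, the disaggregase, had 10.76, 12.25, 13.29 and 12.55 in heat, against 13.40, 12.47, 11.72 and 12.10 in cold (difference 3.24 ± 0.69, adjusted p = 0.06438). Its heat and cold levels had opposite order at 0 min and at 60 min.

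The cytosolic Hsp70, Hsp110 and Hsp40 chaperones did not share this pattern as a list. Their median change was 0.16 in heat and 0.03 in cold over 16 genes. The list was split: 5 had moved 2-fold higher in heat and 1 lower, against 5.82% and 7.03% of all genes. In cold 0 had moved higher and 1 lower. The limma fit called 0 of them. At an unadjusted p under 0.05 there were 4, near the share of all genes under it in either direction (1382 genes, 25.4%). All 4 had heat above cold, and their share was above the 12.6% of all genes in that direction. Inducible and constitutive members are set side by side here after their values were seen, and the difference between members was not tested. SSA4, the stress-inducible cytosolic Hsp70, changed by a mean of 2.33 ± 0.62 in heat and -0.55 ± 0.20 in cold (SD over 3 times), with a difference that did not pass (adjusted p = 0.06764). SSA1, a further cytosolic Hsp70, changed by 0.99 ± 0.40 in heat and -0.50 ± 0.35 in cold, close to SSA4 in cold. SSA2, a constitutive Hsp70 nearly identical to SSA1, lay at 11.28 to 12.03 in heat and changed by -0.16 ± 0.03 in cold, from a start of 14.19 near the top of the scale. For Hsp90, the inducible gene HSP82 passed at 2.57 ± 0.45 (adjusted p = 0.04817), with 13.27, 14.01, 14.30 and 14.25 in heat, against 12.59, 11.21, 10.52 and 11.07 in cold. HSC82, its constitutive copy, had 10.62, 10.58, 12.14 and 10.81 in heat, against 13.73, 13.66, 13.63 and 13.67 in cold, and its difference was 0.63 ± 0.67 (adjusted p = 0.5812). Copies this alike can share probe signal. CNS1, an Hsp90 co-chaperone, passed in the other direction with -1.90 ± 0.34 (adjusted p = 0.04849). PPT1, the Hsp90-bound protein phosphatase, lies in the class lower in heat with mean changes of -1.45 in heat and 1.19 in cold.

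Storage sugar genes shared their signs. All 7 trehalose genes and all 12 glycogen genes were above their 0 min level at each time in heat and below it at each time in cold. The trehalose median was 1.38 in heat and -1.15 in cold, with 2 of 7 genes passing and 3 in the 2-fold class. The glycogen median was 1.13 in heat and -1.52 in cold, with 7 of 12 passing and 7 in the class. Among all genes 2.09% passed with heat above cold, and 23.4% had these signs at each time. TPS2, the trehalose phosphate phosphatase, had 12.29, 13.54, 13.78 and 13.70 in heat, against 12.80, 10.91, 10.47 and 11.07 in cold. The cold start was the higher, and after the shift every heat level was above every cold level (difference 3.36 ± 0.39, adjusted p = 0.03229). TSL1, a regulatory subunit of trehalose synthase, had 12.42, 13.71, 14.12 and 14.07 in heat, against 13.09, 11, 9.42 and 9.50 in cold (4.66 ± 0.83, adjusted p = 0.04849). The trehalases, which break the sugar down, went with the synthesis genes: ATH1 changed by 1.39 in heat and -1.67 in cold, without passing (adjusted p = 0.07388). NTH1 changed by 1.68 in heat and -0.82 in cold (adjusted p = 0.08783).

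On the glycogen side the called genes were those of the primer GLG1, the synthase GSY1, the branching enzyme GLC3, the inhibitor IGD1 and the phosphatase-targeting subunits GAC1, GIP2 and PIG2. GAC1 had 5.47, 8.32, 8.49 and 8.85 in heat, against 7.66, 6.13, 6.32 and 6.46 in cold (4.44 ± 0.30, adjusted p = 0.03194). Its heat 0 min array and its cold arrays after the shift lay below 6.53, a background bound set at the 95th percentile of mean levels among probe sets for other species. A change that starts or ends under this bound can be understated. GIP2 stayed above that bound with 10.63, 13.06, 13.55 and 13.26 in heat, against 8.44, 7.17, 6.69 and 6.84 in cold (4.20 ± 0.44, adjusted p = 0.03194). GSY1 had mean changes of 1.12 in heat and -3.07 in cold, and PIG2, at 1.01 in heat and -1.01 in cold, lay close to the 2-fold threshold in both series.

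General stress genes gave the most members of the class. Of 39 genes measured, 39 had a mean above their start in heat, 0 had one above it in cold, and 37 kept both signs at every time. Their median was 1.21 in heat and -1.24 in cold. In the 2-fold class were 18, and 6 passed the test: DCS2, HSP30, OM45, RTN2, SOL4 and XBP1. SOL4, a phosphogluconolactonase of the pentose phosphate pathway, had 11.32, 13.03, 13.83 and 13.62 in heat, against 12.41, 9.83, 7.77 and 7.80 in cold (6.11 ± 1.14, adjusted p = 0.04968). CTT1, the cytosolic catalase, had 13.55, 14.58, 14.73 and 14.90 in heat, against 12.93, 11.47, 9.38 and 8.89 in cold, and its difference of 4.20 ± 1.10 did not pass (adjusted p = 0.09377). Its heat levels were again near the top of the scale, and each later cold level was lower. The peroxisomal catalase CTA1, which serves fatty acid oxidation, changed by 0.26 ± 0.80 in heat and 1.00 ± 0.21 in cold. The list of small heat shock proteins and disaggregases and those of trehalose, glycogen, general stress and stationary phase genes together hold 78 genes, leaving out all other chaperone lists. Of these, 34 lie in the class higher in heat (32.1% of the class, 43.6% of the lists), 21 passed in the limma fit with heat above cold and 0 with heat below cold (62 and 0 at an unadjusted p under 0.05, which 12.6% of all genes reached with heat above cold).

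The widest gap of any named gene was that of CYC7, the isoform of cytochrome c made under low oxygen and stress. It had 5.34, 8.47, 10.09 and 8.60 in heat, against 10.54, 7.77, 6.33 and 6.46 in cold (difference 7.4 ± 1.10, adjusted p = 0.04041). The order of the series reversed within 15 min, but the heat start and the cold levels at 30 and 60 min lay below the background bound, so the size is uncertain. CYC1, the main isoform, changed by -0.50 ± 0.38 in heat and -0.16 ± 0.07 in cold (adjusted p = 0.5805). YNL194C, a membrane protein of the Sur7 family, had 10.50, 13.18, 13.73 and 13.62 in heat, against 9.62, 7.18, 6.18 and 5.92 in cold (6.2 ± 0.71, adjusted p = 0.03218). Its cold levels at 30 and 60 min lay below the background bound, so this size is uncertain. Its relative FMP45 passed as well, at 4.92 ± 0.88. They were the 2 called genes among 13 of the eisosome and Sur7 list, against 2.09% of all genes with heat above cold. The list median was 0.63 in heat and -0.48 in cold. The respiratory chain as a whole moved little (median 0.40 in heat and -0.26 in cold over 41 genes). Of the 41, 30 were higher at each time in heat and lower at each time in cold, against 23.4% of all genes. Only 2 passed, CYC7 and the NADH dehydrogenase NDI1, where 2.09% of all genes passed with heat above cold. TMA10, a ribosome-associated protein, had 8.49, 11.45, 12.44 and 11.48 in heat, against 11.52, 8.65, 8.58 and 9.37 in cold (5.95 ± 0.68). YER053C-A, a small protein, had 6.56, 8.71, 9.25 and 9.15 in heat, against 12.43, 8.82, 8.47 and 8.49 in cold. Its difference was 6.32 ± 0.44 (adjusted p = 0.03194). The series lay far apart at 0 min and close together after the shift, so this difference rests mostly on the 0 min arrays. Its heat 0 min level was just above the background bound.

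**Figure D2:**
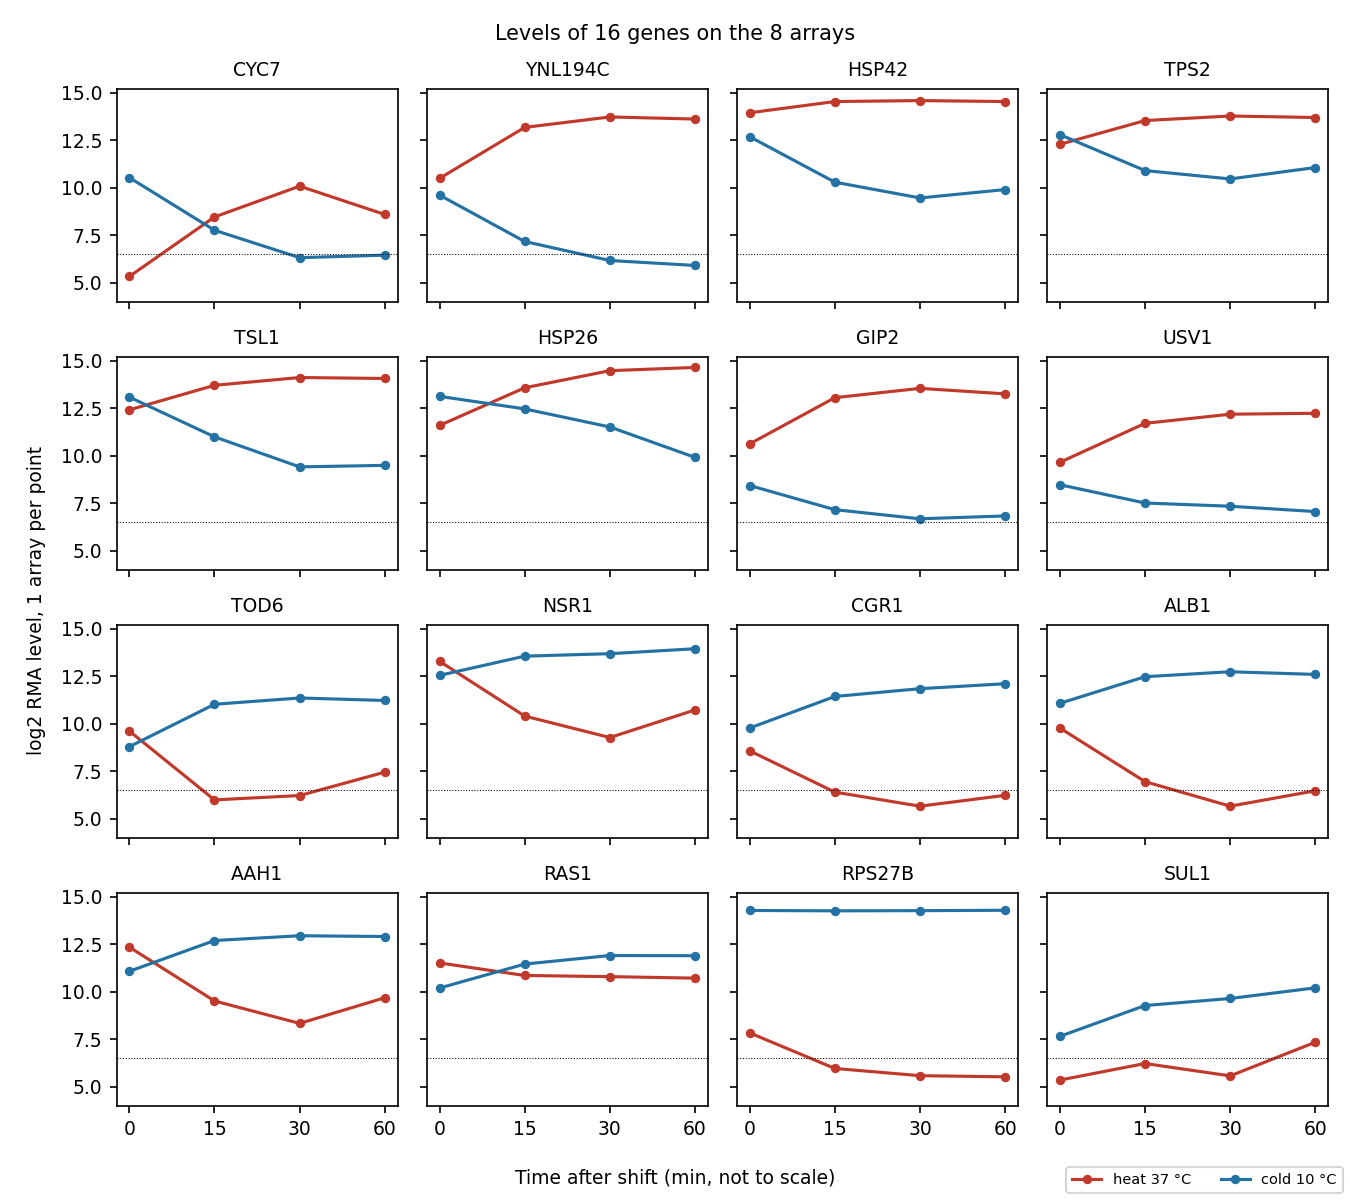
Log2 RMA level of 16 genes at 0, 15, 30 and 60 min in heat (red) and cold (blue), 1 array per point and the dotted line at the background bound of 6.53. CYC7, TPS2, TSL1 and HSP26 go up in heat and down in cold, TOD6, NSR1, CGR1, ALB1 and AAH1 the reverse, RPS27B is flat in cold and SUL1 is higher after the shift in both.

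Several genes of transcription factors passed. Of 16 stress transcription factor genes 3 passed with heat above cold, CIN5, GIS1 and USV1, against 2.09% of all genes. The list median was 0.45 in heat and -0.10 in cold. USV1, a zinc finger factor active on non-fermentable carbon, had 9.66, 11.71, 12.19 and 12.24 in heat, against 8.48, 7.52, 7.35 and 7.07 in cold (3.55 ± 0.45, adjusted p = 0.03229). CIN5, a basic leucine zipper factor of salt and drug tolerance, had 11.53, 13.51, 13.42 and 12.63 in heat, against 10.79, 8.15, 8.52 and 8.98 in cold (3.9 ± 0.68, adjusted p = 0.04817). Its levels were farthest from the start at 15 min in both series, where USV1 was farthest at 60 min.

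In the PKA pathway 1 of 16 genes passed in each direction. Of all genes 2.09% passed with heat above cold and 2.51% with heat below cold. At an unadjusted limma p under 0.05 there were 8 with heat above cold and 2 with heat below cold. Of all genes 12.6% and 12.8% reached that p. RAS1, a GTPase that stimulates adenylate cyclase, had 11.52, 10.86, 10.80 and 10.72 in heat, against 10.20, 11.46, 11.91 and 11.90 in cold (-2.29 ± 0.36, adjusted p = 0.04426). RAS2, its paralog, went the other way, by 0.56 ± 0.22 in heat and -0.47 ± 0.06 in cold, without passing (adjusted p = 0.144). TPK2, a catalytic subunit of PKA, had 12.53, 12.93, 13.09 and 13.18 in heat, against 11.94, 10.75, 10.42 and 10.80 in cold (1.82 ± 0.33, adjusted p = 0.04904). TPK3, another catalytic subunit, changed by -0.71 ± 0.21 in heat and 0.68 ± 0.17 in cold (adjusted p = 0.1021). The directions within each pair were thus opposite in the mean, with 1 member of each called.

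Ribosome assembly genes made up most of the class lower in heat. The 4 lists of small-subunit processome, large-subunit assembly, snoRNP and RNA polymerase I and III genes hold 179 genes. Of these, 97 lie in the class (60.2% of the class, 54.2% of the lists), 61 passed in the limma fit with heat below cold and 0 with heat above cold (160 and 0 at an unadjusted p under 0.05, which 12.8% of all genes reached with heat below cold). The large-subunit assembly factors had a median of -1.82 in heat and 1.28 in cold over 66 genes, against -0.25 in the control, and 64 kept both signs at every time. The small-subunit processome, which folds and cuts the precursor of the small-subunit rRNA, had -1.61 in heat and 1.30 in cold over 56 genes, with 27 called. Among the large-subunit genes 26 were called. In heat the large-subunit median was -1.42, -2.54 and -1.63 at 15, 30 and 60 min; in cold it was 1.08, 1.35 and 1.42. Heat was thus farthest from its start at 30 min, and cold kept its level.

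CGR1, needed for large-subunit assembly, had 8.58, 6.41, 5.67 and 6.24 in heat, against 9.78, 11.44, 11.85 and 12.11 in cold (-4.49 ± 0.51, adjusted p = 0.03218). All 3 of its heat levels after the shift were below the background bound. ALB1, a shuttling factor of the large subunit, had 9.78, 6.96, 5.67 and 6.48 in heat, against 11.08, 12.48, 12.74 and 12.60 in cold (-4.93 ± 0.61, adjusted p = 0.03229), with the heat levels at 30 and 60 min below the bound. REI1, which recycles ALB1 with its partner ARX1 in the cytoplasm, had 12.63, 10.28, 10.35 and 10.91 in heat, against 10.08, 11.80, 11.99 and 11.90 in cold (-3.93 ± 0.37, adjusted p = 0.03194). Its levels were well above background on all 8 arrays. IPI3, of the Rix1 complex, differed by -4.10 ± 0.55 and FYV7, a small-subunit rRNA processing factor, by -4.17 ± 0.43; the heat levels of FYV7 after the shift, 5.86, 5.75 and 5.77, were below the bound.

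On the small-subunit side NAN1 had 7.03, 4.62, 4.51 and 4.48 in heat, against 10.29, 11.56, 11.81 and 11.81 in cold (-3.93 ± 0.32, adjusted p = 0.03194). It is a component of the early U3-containing processome, and its heat levels after the shift were at background. HCA4, a DEAD-box RNA helicase of the processome, differed by -3.82 ± 0.64. SOF1 and MRD1, also needed for small-subunit rRNA maturation, differed by -2.81 ± 0.30 and -3.73 ± 0.33.

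NSR1, the yeast nucleolin, has been known as a cold-responsive gene. It had 13.29, 10.41, 9.28 and 10.73 in heat, against 12.55, 13.56, 13.69 and 13.95 in cold (-4.33 ± 0.57, adjusted p = 0.03423), so that its mean change was -3.15 ± 0.76 in heat and 1.18 ± 0.20 in cold. HMT1, which methylates arginines of nucleolar and RNA-binding proteins, had 12.08, 10.47, 9.90 and 10.66 in heat, against 11.21, 12.55, 12.74 and 12.89 in cold (-3.25 ± 0.40, adjusted p = 0.03229). Both belong to the snoRNP and rRNA modification list of 21 genes, of which 5 passed and 20 kept both signs at every time. RRN11, a subunit of the core factor that places RNA polymerase I on the rDNA promoter, passed at -3.42 ± 0.48 (adjusted p = 0.03622). RPA49, a subunit of RNA polymerase I, had the larger difference of -3.93 ± 1.05 and did not pass (adjusted p = 0.09836). The 37 genes of the RNA polymerase I and III list had a median of -0.61 in heat and 0.71 in cold, and 4 passed. With heat below cold, 2.51% of all genes passed, and 20.1% were lower in heat and higher in cold at every time.

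TOD6 is a repressor that binds the promoters of ribosome assembly genes. It had 9.62, 6.0, 6.23 and 7.46 in heat, against 8.80, 11.03, 11.36 and 11.23 in cold (-5.47 ± 0.60, adjusted p = 0.03194), and its heat levels at 15 and 30 min lay below the bound. It thus went in the same direction as the ribosome assembly genes in both series. DOT6, its paralog with the same known role, had mean changes of 0.53 in heat and -0.13 in cold and a difference of 0.66 ± 0.30, which did not pass. AAH1, adenine deaminase of purine salvage, which is known to be shut off on entry into quiescence, had 12.35, 9.52, 8.34 and 9.69 in heat, against 11.08, 12.70, 12.95 and 12.91 in cold (-4.93 ± 0.63, adjusted p = 0.03287).

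**Figure D3:**
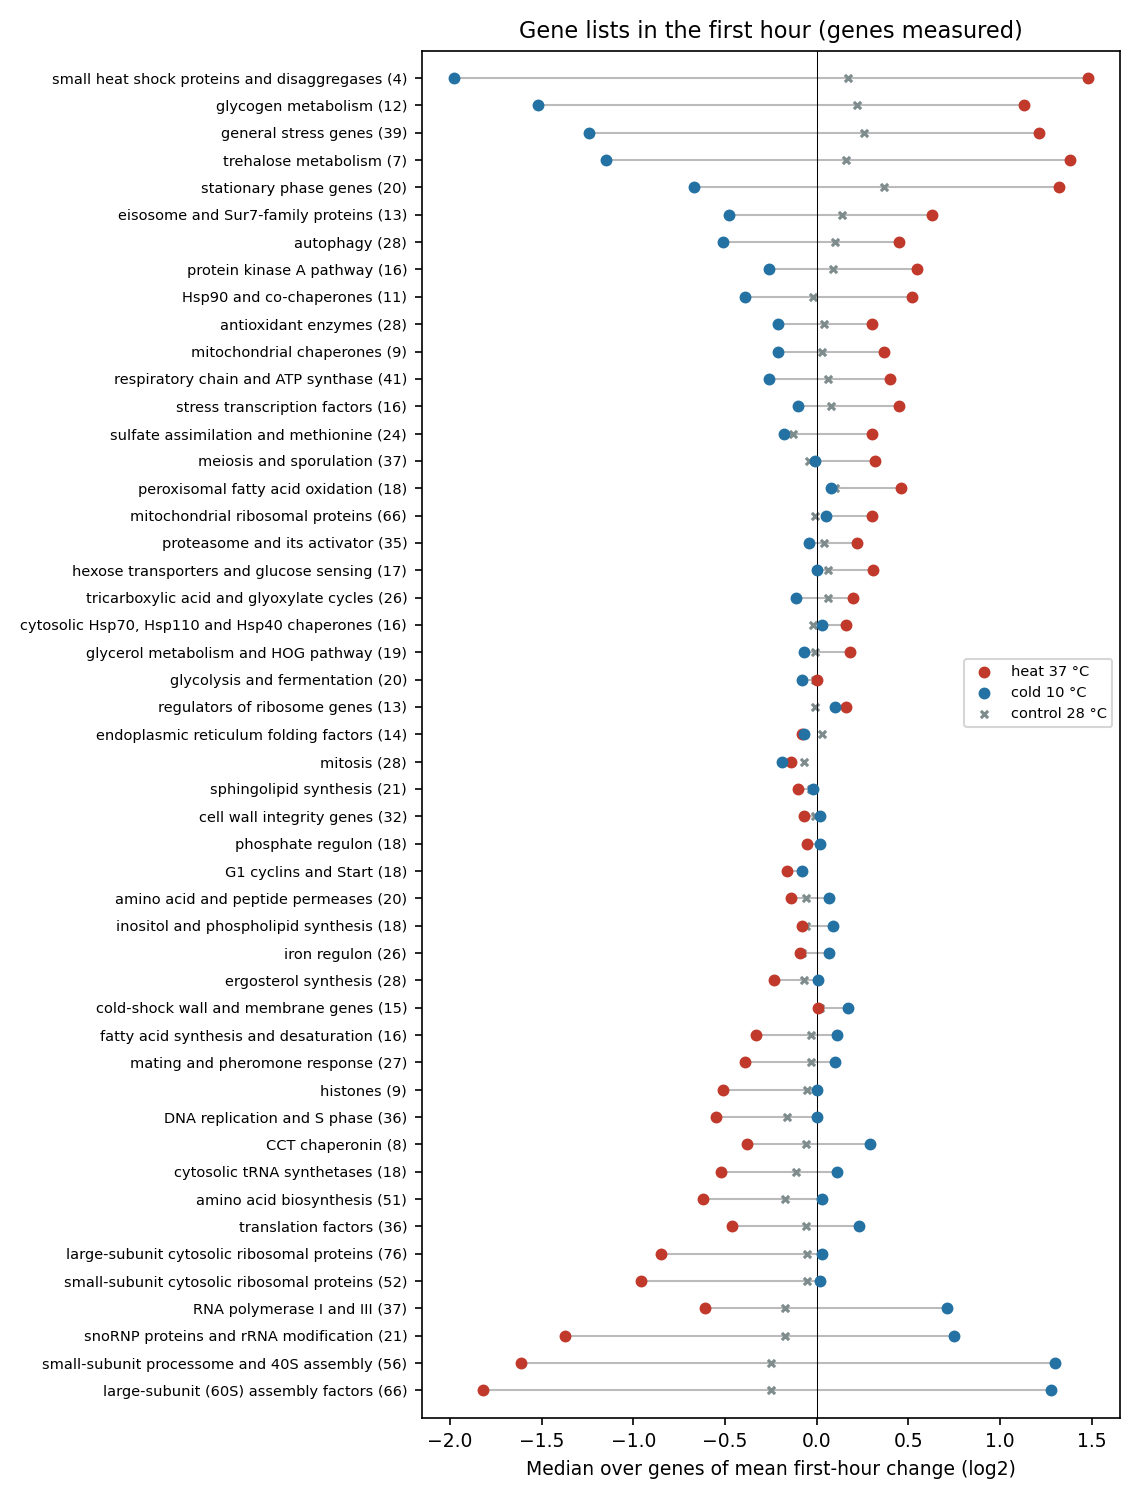
Median over the genes of each of 49 lists of the mean change over 15, 30 and 60 min from the own 0 min array (log2), with the number of genes measured in brackets and red for heat, blue for cold and grey crosses for control. Stress and storage sugar lists spread to the right in heat and left in cold, ribosome assembly lists the reverse, and both lists of cytosolic ribosomal proteins lie left in heat and at 0 in cold.

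Ribosomal protein genes were lower in heat, and in cold their medians stayed close to the start. The small-subunit list had a median of -0.96 in heat and 0.02 in cold over 52 genes, and the large-subunit list had -0.85 in heat and 0.03 in cold over 76. None of the 128 genes lies in either opposite class. Lower in heat and higher in cold at all 3 times were 24 of the 76 and 13 of the 52, against 20.1% of all genes. The limma fit called 2 of the 128, both with heat below cold, against 2.51% of all genes. At an unadjusted p under 0.05 there were 26, all with heat below cold, which 12.8% of all genes reached. In heat 23 of the small-subunit and 27 of the large-subunit genes had moved 2-fold lower. Their heat medians were -0.45, -0.87 and -1.56 at 15, 30 and 60 min for the small subunit and -0.35, -0.87 and -1.40 for the large, still moving away from the start when the assembly lists had turned back. In cold, medians of both lists stayed between 0.00 and 0.04. The 128 genes had a median level of 12.12 on the heat 0 min array and 13.98 on the cold one, against 10.77 and 10.73 for all genes on the heat and cold 0 min arrays. Near the top of the scale an increase in cold would be hard to see, so a flat cold level there does not show that these genes were unaffected. RPS27B, which passed at -2.14 ± 0.33 (adjusted p = 0.043), had 7.84, 5.97, 5.59 and 5.53 in heat, against 14.28, 14.26, 14.27 and 14.29 in cold. Its heat 0 min level was already far below the cold one. The other call in these lists, RPP1, is a subunit of RNase P and not a ribosomal protein, and was caught by the name pattern that built the list. Translation factors had a median of -0.46 in heat and 0.23 in cold over 36 genes, and tRNA synthetases one of -0.52 in heat and 0.11 in cold over 18. The CCT chaperonin, which folds actin and tubulin, had -0.38 in heat and 0.29 in cold over 8 genes, and amino acid biosynthesis had -0.62 in heat and 0.03 in cold over 51. The limma fit called 0 genes in these 4 lists; at an unadjusted p under 0.05 there were 14 translation factors, 4 synthetases, 2 chaperonin genes and 15 amino acid genes. The last 3 counts are near the share of all genes at that p in either direction, 25.4%, but above the share in their own direction. All genes in these 3 counts had heat below cold, which 12.8% of all genes reached at that p. The lists were not tested as sets.

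Few genes moved in the same direction. SUL1 had 5.36, 6.23, 5.58 and 7.35 in heat, against 7.66, 9.28, 9.65 and 10.21 in cold. Its heat levels at 0, 15 and 30 min were below the background bound, and its mean change was 1.03 ± 0.90 in heat and 2.06 ± 0.46 in cold. SUL2, the second sulfate permease, went in opposite directions, by 1.35 ± 0.75 in heat and -0.87 ± 0.18 in cold (adjusted p = 0.1293). At 1.5-fold in place of 2-fold, 6 genes were higher in both, SUL1, ECI1, SPR1, YBR196C-A, YDR246W-A and YKR075C, and 2 were lower in both, CIN2 and CLB6. ECI1, an isomerase of peroxisomal fatty acid oxidation, had mean changes of 0.77 ± 0.28 in heat and 0.59 ± 0.58 in cold.

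Some genes moved in 1 series alone. AMA1, an activator of the anaphase-promoting complex in meiosis, had 6.07, 8.81, 9.41 and 9.36 in heat, against 6.78, 6.10, 6.71 and 6.38 in cold (3.51 ± 0.30, adjusted p = 0.03194). Its heat 0 min level and its cold levels at 15 and 60 min lay below the background bound. The size of its heat change is thus uncertain, and a decrease in cold could hardly show. SPS1, a kinase of spore wall formation, passed in the other direction, with 6.24, 5.14, 5.30 and 5.55 in heat, against 6.63, 7.70, 8.43 and 8.88 in cold (-2.62 ± 0.40, adjusted p = 0.04146). All 4 of its heat levels were below background. The list of 15 wall and membrane genes known from prolonged cold had a median of 0.01 in heat and 0.17 in cold. The limma fit called 0 of them, with 1 at an unadjusted p under 0.05. Of the 15, 1 was past 2-fold higher in cold, the mannoprotein gene TIR4. It had 9.94, 9.99, 10.00 and 10.16 in heat, against 8.17, 8.71, 9.41 and 10.31 in cold, where each later level was higher (difference -1.20 ± 0.58, adjusted p = 0.2573). TIR1, at a middle level, differed by -0.15 ± 0.34 (adjusted p = 0.8188). TIP1 differed by 0.02 ± 0.29, but it lay between 14.17 and 14.51 on all 8 arrays, near the top of the scale, where a further increase would hardly show. OLE1, the fatty acid desaturase, had 11.61, 10.80, 10.52 and 11.98 in heat, against 12.63, 13.16, 13.49 and 13.87 in cold (difference -1.39 ± 0.47, adjusted p = 0.1475).

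The opposite movement was present at the first sample after the shift and smaller by 2 h. At 15 min 55 genes were past 2-fold higher in heat and lower in cold, 117 the reverse and 0 the same way in both. At 30 min the counts were 140, 198 and again 0. At 60 min they were 125 and 153, with 10 genes higher and 2 lower in both. At 2 h 36 and 10 genes were opposite, against 27 higher and 3 lower in both. By 24 h the balance had turned over: 38 and 30 genes were opposite, against 321 higher and 274 lower in both. At 24 h 1840 genes were 2-fold from their start in heat and 1467 in cold, and in the unshifted control 2225 were, so that changes of a culture held for a day at 28 °C cannot be told apart from those of heat and cold there. At 8 h the numbers were 588 in heat, 1370 in cold and 282 in the control. Across the 5449 genes, which are not independent, Pearson's r between the heat and cold changes was -0.717, -0.651 and -0.494 at 15, 30 and 60 min, then -0.075 at 2 h, 0.148 at 4 h, 0.273 at 8 h and 0.447 at 24 h. No array is shared between heat and cold.

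**Figure D4:**
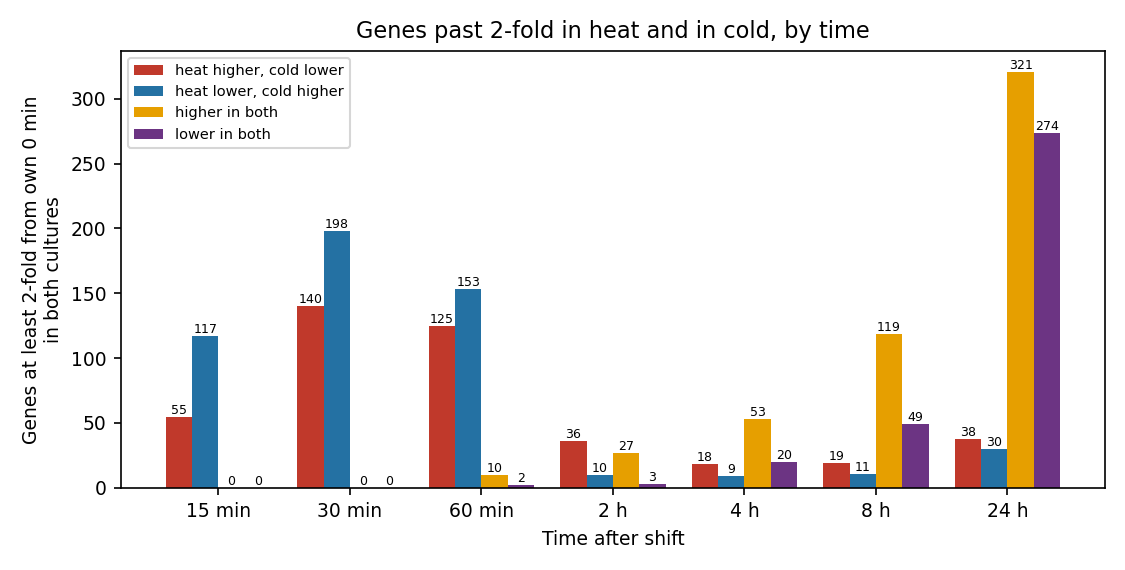
Number of genes at least 2-fold from the own 0 min array in both heat and cold, by time after the shift and by direction. Opposite directions hold all genes at 15 and 30 min, and same directions hold most at 4, 8 and 24 h.

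In both opposite classes heat moved back towards its start by 8 h, while cold had gone to the other side of its start. At 2 h the signs of the first hour still held for most members. Of the 106 genes 105 were above their start in heat and 91 below it in cold. Of the 161 genes 155 were below it in heat and 157 above it in cold. Over all 5449 genes 2737 were above and 2712 below their start in heat, and 2803 above and 2646 below in cold. The classes were chosen on changes from the same 0 min arrays, so an error in a 0 min array would keep these signs as well. The class higher in heat had median changes in heat of 1.23, 1.89 and 1.58 at 15, 30 and 60 min and 0.88, 0.60, 0.33 and 1.04 at 2, 4, 8 and 24 h. In cold these 106 genes had -1.20, -1.71 and -1.71 in the first hour, -0.76 at 2 h, and then 0.48, 1.23 and 1.36 at 4, 8 and 24 h. In cold at 8 h, 62 of them (58.49%) were 2-fold above their start and 1 (0.94%) below, against 13.23% and 11.91% of all genes. The class lower in heat had -1.42, -2.42 and -1.5 in the first hour of heat and -0.56, -0.38, -0.05 and -0.25 later. In cold its 161 genes had 1.18, 1.45 and 1.43, then 0.92 at 2 h, -0.04 at 4 h, -0.77 at 8 h and 0.26 at 24 h. At 8 h in cold 3 of them (1.86%) were 2-fold above their start and 56 (34.78%) below. At 24 h 20 (12.42%) were above, near the 13.95% of all genes, and 4 (2.48%) below, against 12.97% of all genes. In the first hour the control arrays drifted less, and in the direction of heat. At 15, 30 and 60 min their medians were 0.18, 0.35 and 0.42 in the class higher in heat. In the class lower in heat they were -0.15, -0.35 and -0.32. Later the control did not always drift less. At 8 h its medians in these classes were 0.52 and -0.60, both larger in size than those of heat, and 30 of the 161 genes were 2-fold below their start. At 24 h they were 0.44 and 0.97. A later change that the unshifted culture shares cannot be told apart from one of heat or cold. Across genes the control's mean first-hour change had an r of 0.678 with that of heat and -0.511 with that of cold. With the control's change subtracted at each time, the class higher in heat held 107 genes, 79 of them shared with the 106, and the class lower in heat held 163, 138 of them shared with the 161.

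**Figure D5:**
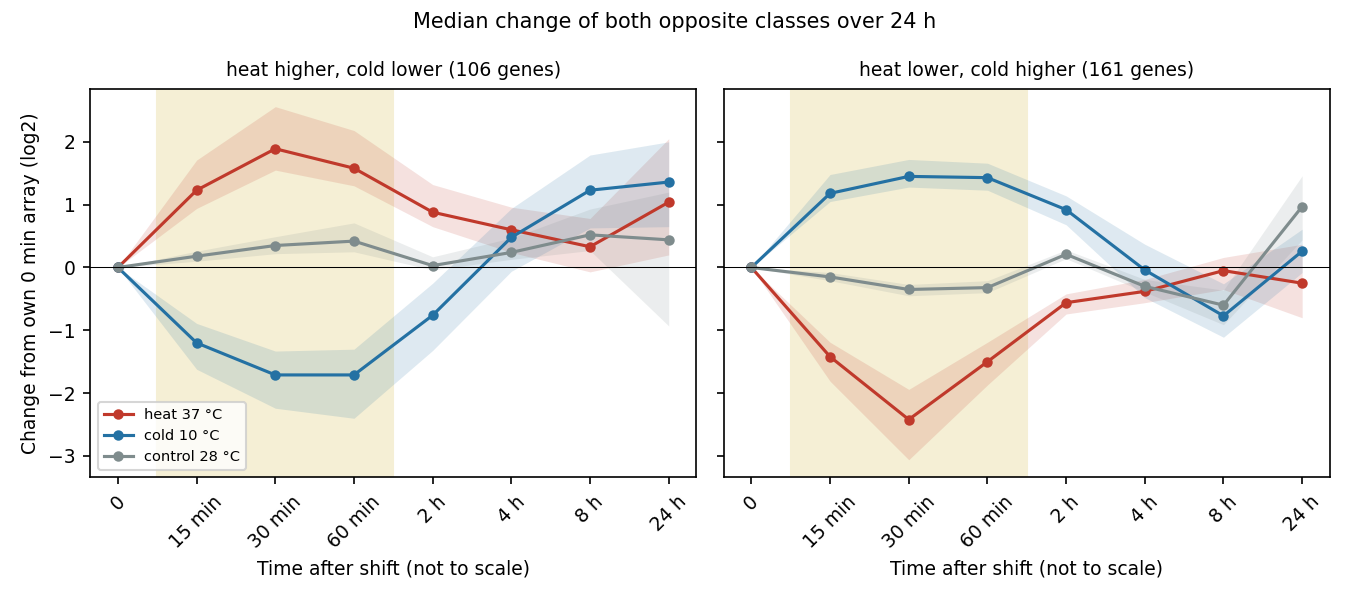
Median change from the own 0 min array (log2) of the 106 and 161 genes of the opposite classes over 24 h in heat (red), cold (blue) and control (grey), with bands from the lower to the upper quartile and the first hour shaded. In cold both classes cross 0 between 2 and 8 h, and the class lower in heat is back above 0 at 24 h; the heat medians keep their sign, near 0 at 8 h.

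The edges of the classes were not sharp. Just inside the class higher in heat lay RRI2, at 1.007 in heat and -1.022 in cold. PYK2, a pyruvate kinase gene, lay just outside it at 1.0 in heat, a value that is below the threshold before rounding, and -1.346 in cold, and IRC15 at 1.364 in heat and -0.995 in cold. EFM1, at -1.06 in heat and 1.002 in cold, and NIP7, at -2.293 in heat and 1.006 in cold, lay just inside the class lower in heat. GRC3, at -1.181 in heat and 0.998 in cold, and IZH1, at -0.997 in heat and 1.518 in cold, lay just outside it. The rule used neither gene length nor level. The median coding length was 1192.5 bases for genes higher in heat, 1437 bases for genes lower in heat and 1236 bases for all genes. The median log2 level was 11.24 for genes higher in heat, 10.13 for genes lower in heat and 10.72 for all genes. Of the 106 and 161 genes, 56 and 62 belong to none of the 49 lists.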

How the data were processed

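Biotin-labelled RNA was hybridised to 1-colour arrays with 10928 probe sets. The authors deposited log2 values made by RMA, as the submitters' processing notes state. Neither its version nor whether all arrays went through it together is stated in the labels or notes used here. Per the labels' protocols, heat RNA was amplified with a Roche kit plus Ambion transcription, and cold and control RNA with the Ambion kit alone. RMA equalises array distributions and compresses dim values. The number of arrays limits the precision.

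Probe sets with 1 S. cerevisiae gene in the platform annotation (5498) were averaged to 5449 genes, of which 125 rest on probe sets that can bind several transcripts and 177 had a mean below 6.53, and names came from the annotation and RefSeq (assembly R64). limma 3.58.1 in R 4.3.3 (lmFit, eBayes) fitted 8 arrays with time as a block and terms for series and series by first hour. The pairing is by the time point that the labels give to both series. Residual degrees of freedom were 2, prior degrees of freedom 3.48 and the median standard error 0.348. Benjamini-Hochberg adjustment ran over 5449 genes with a threshold of 0.05, and called genes had adjusted p from 0.03194 to 0.04968. In a test on simulated data, run on all genes for this contrast, 2, 42, 50 and 50 of 50 genes changed by log2 1, 2, 3 and 4 were recovered, with 10 false calls.

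Members and the 49 lists (1285 of 1304 names matched) were chosen with earlier results of these data known, so their counts and medians are descriptions. The naming rule took 112 genes: 6 per class by the smaller of both changes, the 5 highest and 5 lowest differences among called genes, 2 per list by size of difference, and 13 genes in any case. Paralogs and further called list members were named after their values were seen. Alternatives covered the arrays in the fit, the 0 min arrays, the block, the variance model, the fold threshold, subtraction of the control, a filter on dim genes, quantile normalization and leaving out each time. Promoter sequences were not analysed here.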

Additional observations from a re-analysis of the deposited data

Results flagged for a closer look

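The difference between the heat and cold changes passed the limma fit for 251 genes, of which 32 were named by rule. Of these, 17 had heat above cold, with heat minus cold differences on the log2 scale of 7.4 for CYC7, 6.32 for YER053C-A, 6.2 for YNL194C, 6.11 for SOL4, 5.95 for TMA10, 5.07 for PHM7 and 4.92 for FMP45. The storage sugar genes among them had 4.66 for TSL1, 4.44 for GAC1, 4.20 for GIP2 and 3.36 for TPS2. The transcription factor genes had 3.9 for CIN5 and 3.55 for USV1, and the chaperone genes 3.41 for HSP42 and 2.57 for HSP82. AMA1 had 3.51 and TPK2 had 1.82.

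The other 15 had heat below cold. TOD6 had -5.47, AAH1 had -4.93 and RAS1 had -2.29. Ribosome assembly genes had -4.93 for ALB1, -4.49 for CGR1, -4.33 for NSR1, -4.17 for FYV7, -4.10 for IPI3, -3.93 for NAN1, -3.82 for HCA4, -3.42 for RRN11 and -3.25 for HMT1. SPS1 had -2.62, RPS27B had -2.14 and the RNase P gene RPP1 had -1.64.

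The control probe sets for ribosomal RNA, which belong to no comparison above, were brighter on the heat arrays before the shift. The median over 10 probe sets of heat minus control at 0 min was 2.42, with values from 0.3 to 4.0. In 9 of the 10, every heat array lay above every cold and control array. In the first hour these probe sets changed by a median of 0.16 in heat and -0.46 in cold.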

How the results depend on the processing

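Both opposite classes kept their size within 1.5 times when the control was subtracted, dim genes were left out, the values were quantile normalized again, or each time was left out (86 to 131 genes higher in heat, 137 to 178 lower in heat). At 1.5-fold they held 287 and 323 genes, at 3-fold 26 and 32. Higher in both were 6 genes at 1.5-fold and 0 at 3-fold, with the control subtracted or after quantile normalization, and 0 to 2 with each time left out; lower in both were 2 at 1.5-fold.

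The fit called 251 genes, against 1081 on 12 arrays with the control, 3991 without the 0 min arrays, 671 with no time block, and 0 to 790 with each time left out: 790 without 15 min, 151 without 30 min and 0 without 60 min. All 251 kept their sign in each of these fits other than that without the 0 min arrays. It gave 272 on all 24 arrays, 146 of them shared, 323 with trend and robust eBayes, 275 without dim genes and 347 after quantile normalization. Without the time block, 248 of the 251 calls remained.

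Without the 0 min arrays the heat minus cold medians of 11 lists changed sign, to 0.07 for the CCT chaperonin, -0.25 for antioxidant enzymes, -0.37 for mitochondrial ribosomal proteins, 0.13 for tRNA synthetases, 0.13 for ergosterol synthesis, -0.78 for the respiratory chain, 0.08 for permeases, 0.32 for the iron regulon, 0.22 for the phosphate regulon, 0.05 for G1 cyclins and 0.26 for mating. So did 10 named genes: HSP10 to -2.13, MRP8 to -1.80, ERG28 to -1.63, GLK1 to -1.92, MET28 to -3.96, FIT2 to -1.71, PHO84 to 1.48, ATG19 to -2.71, CLN3 to -0.80 and STE18 to -1.98. The histone list, at -0.44 with all times, ran between -0.65 and 0.06 with each time left out, and was positive only without 60 min. By construction this comparison holds the starting difference between the heat and cold arrays; otherwise the cause was not tested.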
